A study of Oryctolagus cuniculus with 9 samples.

Results

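Full-thickness defects of rabbit knee cartilage that were left untreated were compared with healthy cartilage of the same animal model by RNA sequencing, 12 weeks after surgery. All 3 untreated and all 3 healthy libraries were used, 6 of the 9 libraries of the series, and the other 3, from defects that received the collagen and chondroitin sulfate scaffold CLCS, entered 1 alternative fit only. The animals were New Zealand white (NZW) rabbits, 4 to 5 months old when selected for the study, with no transgene or mutation given. A critical size defect, one too large to be expected to close by itself, was drilled in the trochlear groove of both knees, and the left defect was closed without a scaffold. The study's scheme takes the untreated tissue from the left trochlea and the healthy tissue from the condyle, so injury and site in the joint cannot be told apart in any difference reported here. The labels do not say which libraries came from which animal, and p-values therefore measure only the spread between these libraries.

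Articular cartilage is a tissue of a single cell type, the chondrocyte, without vessels, nerves or lymphatics. Chondrocytes live at low oxygen and keep up a matrix of type II, IX and XI collagen fibrils filled with the proteoglycan aggrecan. A defect that reaches the bone below lets blood, marrow stromal cells and vessels in, and unaided repair is known for fibrous tissue and fibrocartilage, in which type I collagen takes the place of type II, and for new bone in the depth of the defect.

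The table listed 14870 genes, of which 14300 had at least 1 read in the 6 libraries and 3496 had enough reads to be tested. Reads assigned to genes numbered 751908 to 944448 per healthy and 724986 to 915657 per untreated library. At these totals, genes with a few reads per library could not be compared. These counts hold only a small part of the read pairs that the study lists as aligned for the same libraries, and which pairs were left out, beyond those with several alignments, is not given in the sources used here. Nor do the sources say whether reads of 1 strand or of both were counted, which bears on what the value of every gene below measures. Values per library are given below as whole reads, and log2 fold changes as untreated minus healthy, computed on reads scaled to a common depth plus 1, where the scaling multiplied reads by 0.788 to 1.01. Adding 1 understates the change of genes with few reads. The cartilage identity of the healthy libraries was shown by COL2A1, the type II collagen gene, with 9138, 7851 and 7608 reads, and by ACAN, the aggrecan core protein, with 609, 518 and 340. COMP and PRG4, which also mark cartilage, have no row under these symbols and were not analysed here. Untreated replicate 3 stood apart. Its correlation with the healthy libraries, across tested genes on the log2 scale, was 0.766 to 0.782 against 0.805 to 0.865 for the other 2 untreated libraries, and the most abundant transcript of the series, the unnamed gene ENSOCUG00000023467, took 1.49% of its reads against 17.8% to 28.3% in the other 5.

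With limma, 89 of the 3496 tested genes (2.55%) passed an adjusted p of 0.05, 47 higher (1.34%) and 42 lower (1.2%) in untreated defects. The groups did not overlap in 396 genes above (11.3%) and 373 genes below (10.7%) the healthy libraries, and 582 genes had an unadjusted p under 0.05 (16.6%, with 8.64% higher and 8.01% lower). Of the 89 genes, 77 were also called by the quasi-likelihood test of edgeR, which called 87 (2.49%, with 1.37% higher and 1.12% lower), and 88 by DESeq2, which called 275 (7.89%, with 4.39% higher and 3.5% lower). The calls were not stable to the loss of a library. Leaving out any 1 of the 6 left 2 to 7 calls, and the collagenase gene MMP13 and the unnamed gene ENSOCUG00000005327 were the 2 called without each library in turn. Since 15 of the called genes carry no symbol, they are not described further, apart from ENSOCUG00000005327, which had the largest decrease: 4753, 3801 and 7091 reads in healthy cartilage and 130, 77 and 113 in untreated defects, or -5.67 ± 0.32 (SE) on the log2 scale with an adjusted p of 0.000966.

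**Figure D1:**
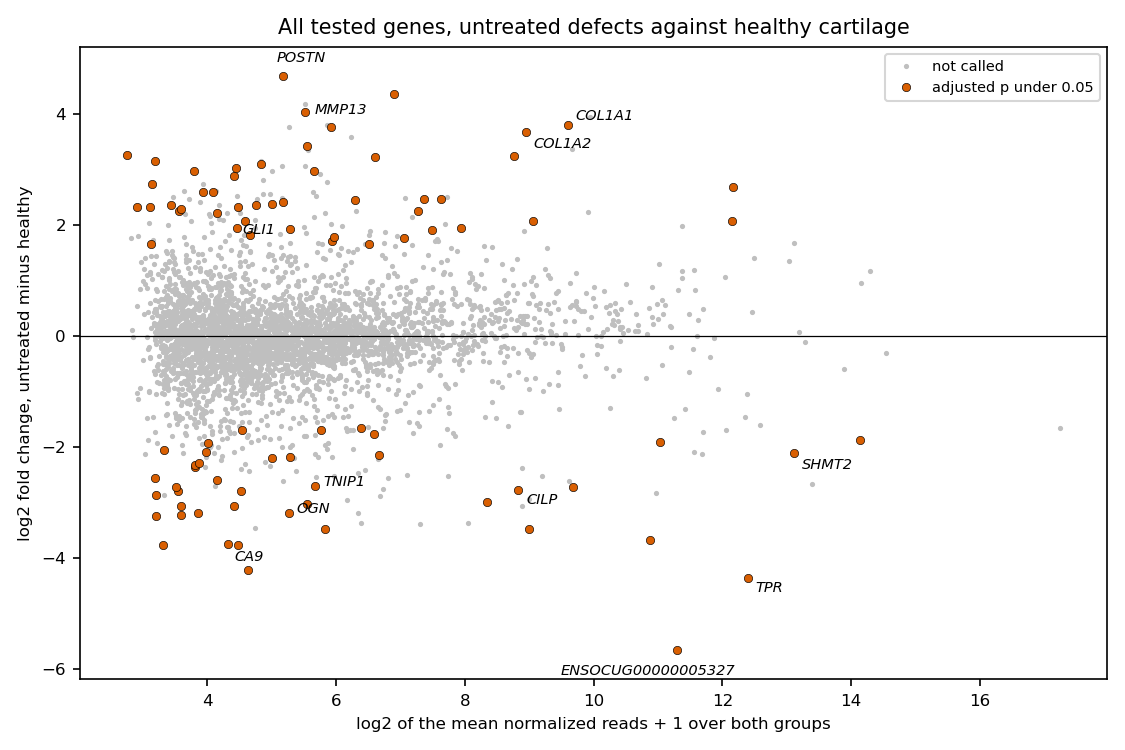
Log2 fold change (untreated minus healthy, vertical axis) of the 3496 tested genes against the log2 of their mean normalized reads plus 1 (horizontal axis). Orange points are the 89 genes called by limma, 47 above and 42 below zero, and POSTN and ENSOCUG00000005327 lie at the upper and lower ends of the called genes.

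Type I collagen rose in untreated defects. COL1A1, one chain of the main collagen of bone, tendon and scar, had 262, 94 and 40 reads in the healthy and 1957, 795 and 2123 in the untreated libraries. Its partner chain COL1A2 had 191, 50 and 39 and 1287, 770 and 1010. For both genes every untreated library was above every healthy library, and both rose: COL1A1 by 3.79 ± 0.70 on the log2 scale (SE, limma adjusted p = 0.0398) and COL1A2 by 3.68 ± 0.59 (adjusted p = 0.0292). EdgeR called COL1A2 but not COL1A1 (adjusted p = 0.0548). Without untreated replicate 3 the values were 3.53 and 3.66. In bulk tissue such as this, fewer cells of a type and less RNA per cell cannot be told apart. These were the 2 called genes among the 7 tested of 10 fibrous tissue collagens, where 1.34% of all tested genes were called higher. The list had a median log2 fold change of 0.58 against -0.02 over all tested genes. The other fibrillar members did not pass the test. COL3A1, the collagen of early scar and vessel walls, had 240, 299 and 431 reads in healthy and 785, 79 and 2020 in untreated libraries, so its value of 0.58 (adjusted p = 0.857) rested on untreated replicates 1 and 3 and became -0.43 without replicate 3. COL5A2, which joins type I fibrils, had 201, 88 and 170 reads against 191, 86 and 253, with overlapping groups.

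POSTN showed the largest increase of all called genes. It encodes periostin, a matricellular protein of periosteum, ligament and healing tissue. Healthy libraries held 7, 1 and 0 reads and untreated libraries 87, 38 and 106, without overlap, and the gene rose by 4.69 ± 0.74 on the log2 scale (adjusted p = 0.0286). It was the 1 gene that limma or edgeR called among the 15 tested of 38 matricellular and fibroblast matrix genes, whose median was -0.68. DESeq2 called it and 3 lower members. LTBP2, a protein of matrix microfibrils, was the second member with all untreated libraries above the healthy ones, at 16, 12 and 18 against 25, 32 and 23 reads (adjusted p = 0.343), and TNC, the glycoprotein tenascin C, had an unadjusted p of 0.0463 with overlapping groups (12, 8 and 12 against 56, 10 and 67 reads). The 3 lower members lay on the opposite side: THBS1 (-1.55) and THBS4 (-1.85), 2 thrombospondins, and CTGF (-1.75), a growth factor binding protein of cartilage and scar, had all untreated libraries below all healthy ones, with adjusted p-values of 0.159, 0.169 and 0.185. Fibronectin (FN1) was abundant in both groups, with 3647, 710 and 1011 reads in healthy and 1470, 540 and 885 in untreated libraries, and its groups overlapped. LUM, the fibrous tissue proteoglycan lumican, had too few reads in healthy cartilage to be tested: 1, 0 and 0 against 39, 6 and 70, a ratio of 108 with an exact 95% counting interval of 18.9 to 4284, which covers counting error only. Myofibroblast markers were sparse. ACTA2, the smooth muscle actin that defines these cells, had 0, 0 and 0 reads in healthy and 1, 0 and 2 in untreated libraries, and none of the 5 tested of 22 fibroblast and myofibroblast markers was called by limma or edgeR (2 higher with an unadjusted p under 0.05, 1 by DESeq2), with CALD1, an actin binding protein, at 2.06 ± 0.51 (adjusted p = 0.0878).

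Genes of the cartilage matrix had mostly negative log2 fold changes, with few of them past the threshold. All 7 tested of 8 cartilage collagens had a negative log2 fold change, with a median of -1.15, but limma, edgeR and DESeq2 called none, and 1 had an unadjusted p under 0.05. COL2A1 had 9138, 7851 and 7608 reads in healthy libraries against 11191, 4061 and 505 in untreated libraries. The groups overlapped, since untreated replicate 1 was at the healthy level and replicate 3 far below it. The log2 fold change of -1.61 (95% interval -3.92 to 0.69) became -0.38 without replicate 3. COL9A2, a chain of the collagen that decorates type II fibrils, was also lowest in replicate 3, with 221, 172 and 22 reads in untreated libraries against 176, 467 and 286 in healthy ones. COL11A1, a chain of the fibril core, was more even: 345, 202 and 287 reads in healthy and 222, 109 and 91 in untreated libraries, without overlap (-1.15 ± 0.37, unadjusted p = 0.0171, adjusted p = 0.169). COL10A1, the collagen of hypertrophic chondrocytes, had overlapping groups (115, 78 and 107 against 49, 112 and 52 reads). Outside the cartilage and fibrous sets, COL22A1, a collagen of tissue junctions and articular cartilage, had 11, 4 and 5 reads in healthy and 39, 32 and 15 in untreated libraries, which lay apart without a call (1.86 ± 0.47, adjusted p = 0.0916).

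Among cartilage matrix and chondrocyte proteins, 1 of the 10 tested of 25 was called and 9 had a negative value, with a list median of -1.52, while 5 were lower at an unadjusted p under 0.05 and DESeq2 called 3. The called gene was CILP, a protein of the middle zone of articular cartilage, with 1414, 624 and 483 reads in healthy and 151, 145 and 71 in untreated libraries. No untreated library reached the lowest healthy one, and CILP fell by 2.78 ± 0.50 on the log2 scale (adjusted p = 0.0381), or by 2.44 without untreated replicate 3 (adjusted p = 0.089). ACAN had 609, 518 and 340 reads against 355, 276 and 110. Its groups lay apart, but the difference of -1.19 ± 0.49 did not pass the test (adjusted p = 0.278). CLEC3A, a cartilage lectin, had 231, 96 and 123 reads against 35, 39 and 1, and CYTL1, a cytokine-like protein of chondrocytes, 317, 59 and 61 against 56, 15 and 8. Both had all untreated libraries lowest, with adjusted p-values of 0.169 and 0.178. HAPLN1, the link protein that ties aggrecan to hyaluronan, was at -0.97 ± 0.38 (adjusted p = 0.255). The transcription factors of chondrocytes were too low to test, 0 of the 7 with a row passing the filter. SOX9, the master regulator of the lineage, had 35, 41 and 4 reads in healthy and 6, 4 and 4 in untreated libraries, which overlapped.

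The small leucine-rich proteoglycans, which bind collagen fibrils and set their width, gave 1 call in 6 tested of 15, and all 6 values were negative (median -1.72). DESeq2 called 3 of them lower. The untested list member LUM, described above, had more reads in every untreated library. OGN (osteoglycin) had 86, 38 and 92 reads in healthy and 10, 13 and 2 in untreated libraries, without overlap, and fell by 3.20 ± 0.63 (adjusted p = 0.049). FMOD (fibromodulin) had 100, 35 and 90 against 43, 15 and 12 reads and a log2 fold change of -1.81 (adjusted p = 0.138). DCN (decorin) varied widely among healthy libraries, at 365, 34 and 149 reads, and overlapped with the untreated ones at 55, 10 and 36.

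**Figure D2:**
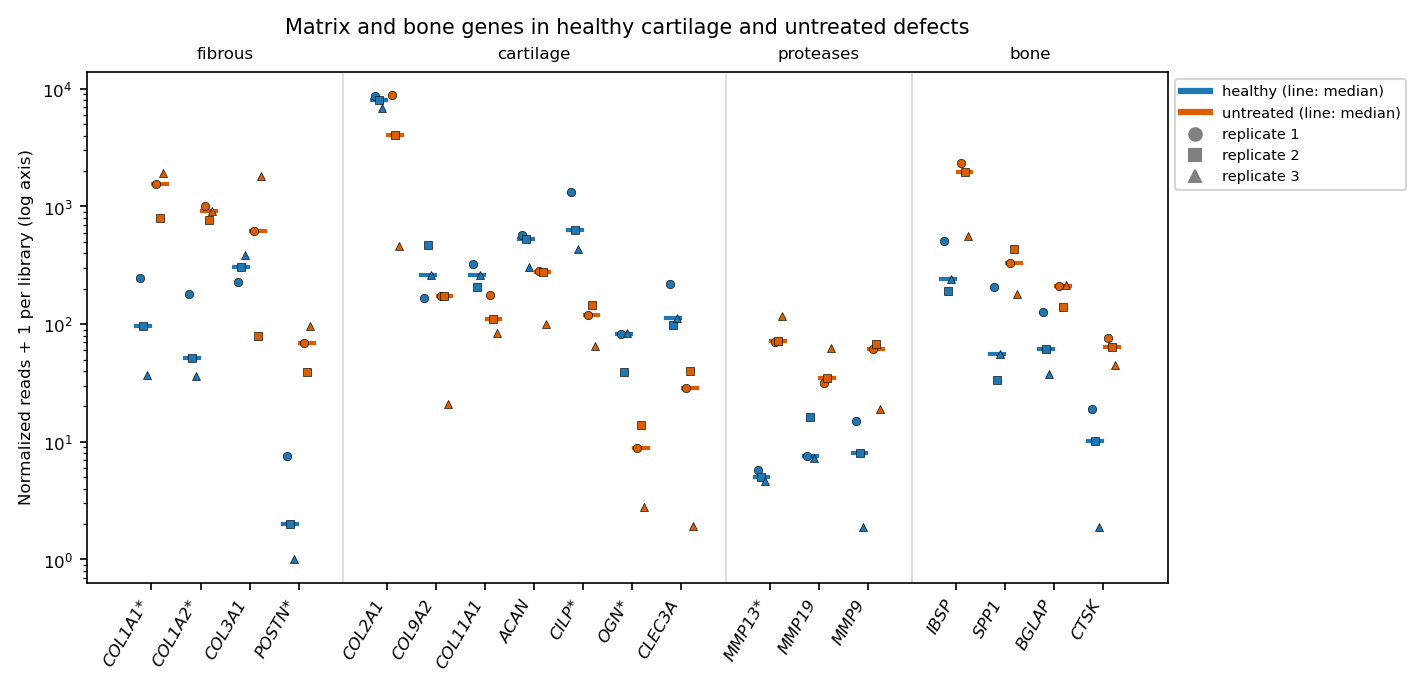
Normalized reads plus 1 per library (log axis) of matrix, protease and bone genes in healthy (blue) and untreated (orange) samples, with a marker for each replicate and a line at the median of 3. Asterisks mark genes called by limma. The 3 untreated libraries lie above the 3 healthy ones for COL1A1, COL1A2, POSTN, MMP13, IBSP and CTSK and below them for CILP, OGN and ACAN, while COL2A1 and COL3A1 overlap.

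The balance of the 2 main collagens was read within each library, where it does not depend on scaling. COL1A1 reads per 100 COL2A1 reads were 2.87, 1.20 and 0.526 in the healthy libraries and 17.5, 19.6 and 420.4 in the untreated ones. Per 100 ACAN reads they were 43.0, 18.2 and 11.8 against 551, 288 and 1930.0. Every untreated library exceeded every healthy one for both ratios, which for ACAN follows from the separate values of the 2 genes, so no test is given. The ratios are not corrected for transcript length, so only their change between libraries can be read.

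**Figure D3:**
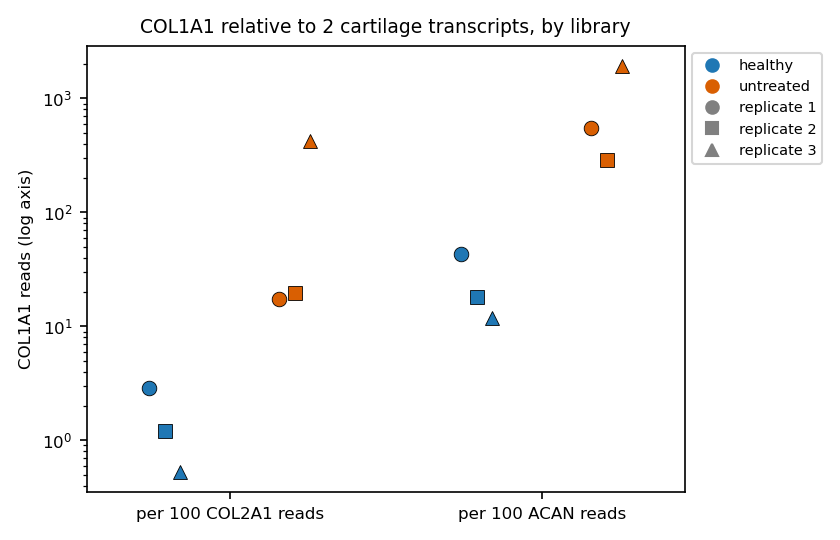
COL1A1 reads per 100 COL2A1 reads (left) and per 100 ACAN reads (right) in each library, on a log axis. Healthy libraries lie at 0.526 to 2.87 and untreated libraries at 17.5 to 420.4 on the left. Untreated replicate 3 is highest on both.

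Among matrix proteases, MMP13 rose. It encodes collagenase 3, which cleaves type II collagen in hypertrophic and osteoarthritic cartilage and in bone remodelling. It had 5, 4 and 4 reads in healthy and 89, 71 and 128 in untreated libraries. The lowest untreated library was far above the highest healthy one, and MMP13 rose by 4.04 ± 0.32 on the log2 scale (adjusted p = 0.00513), and by 3.81 without untreated replicate 3. Of 22 metalloproteinases 15 had a row and 4 were tested, with 1 call and a median of 2.45. MMP19 had 7, 15 and 7 against 39, 34 and 68 reads (log2 fold change 2.09, adjusted p = 0.0627). MMP9, the gelatinase of osteoclasts and myeloid cells, had 15, 7 and 1 against 77, 67 and 20 reads (2.81, adjusted p = 0.139). The groups of both lay apart without passing the test. The aggrecanase ADAMTS4 overlapped between groups (0.51 ± 0.33), and none of the 6 tested of 31 ADAMTS and ADAM genes was called by limma, edgeR or DESeq2 (1 with an unadjusted p under 0.05, ADAMTSL4, lower).

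Genes of collagen maturation and protease control were not called. BMP1, the proteinase that trims procollagen, had 8, 3 and 0 reads in healthy and 18, 19 and 27 in untreated libraries, which lay apart (2.60 ± 0.74, adjusted p = 0.127). LOXL3, a collagen crosslinking oxidase, had 326, 1710 and 466 against 186, 136 and 86 (-2.38 ± 0.66, adjusted p = 0.121). In all, 12 of 26 genes for collagen processing, 5 of 13 protease inhibitors, 5 of 32 genes for hyaluronan and sulfated sugar synthesis and 7 of 26 integrins were tested, with list medians of -0.16, 0.65, -0.25 and 0.02, and limma and edgeR called none. Their numbers with an unadjusted p under 0.05 were 3, 2, 0 and 0, and DESeq2 called 2 of the collagen processing genes and none of the others. Over the whole set of 292 matrix genes, 95 were tested, 4 rose (COL1A1, COL1A2, POSTN, MMP13) and 2 fell (CILP, OGN), which is 6.32% against 2.55% of all tested genes.

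Of 52 bone genes 16 were tested, 2 rose and none fell (12.5% against 2.55% of all tested genes), and 11 had a positive log2 fold change. Of 31 osteoblast and mineral matrix genes 11 were tested, with a median of 1.48 and 2 calls, which were again COL1A1 and COL1A2. IBSP, bone sialoprotein, which seeds mineral in new bone, had 543, 189 and 269 reads in healthy and 2949, 1946 and 616 in untreated libraries. The groups lay apart, yet the difference of 2.24 ± 0.63 had an adjusted p of 0.125. It was 2.88 without untreated replicate 3, the lowest of its group. BGLAP, osteocalcin of mature osteoblasts, had 134, 60 and 41 against 267, 140 and 238 reads (1.48, adjusted p = 0.168), and SPP1, osteopontin, 220, 32 and 60 against 419, 431 and 198 (2.02, adjusted p = 0.191), with an overlap of 1 healthy and 1 untreated library. In the RefSeq table of a newer rabbit assembly, mOryCun1.1, PAQR6 overlaps BGLAP, and the share of its reads in the BGLAP value was not tested. Both DLX5, a transcription factor of osteoblasts and hypertrophic chondrocytes (-1.29 ± 0.40), and PTH1R, the receptor of parathyroid hormone and its related peptide (-0.85 ± 0.27), had all untreated libraries below the healthy ones without being called.

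Of 21 osteoclast genes 5 were tested and none was called by limma or edgeR, 2 had an unadjusted p under 0.05, and DESeq2 called 2. These were CTSK, cathepsin K, the main collagen degrading enzyme of osteoclasts, with 19, 9 and 1 reads in healthy and 95, 63 and 48 in untreated libraries (log2 fold change 3.07 ± 0.79, adjusted p = 0.098), and MMP9. ATP6V0D2, a proton pump subunit of osteoclasts, was too low to test at 2, 0 and 1 against 30, 11 and 4 reads. TNFRSF11B, osteoprotegerin, the decoy receptor that blocks osteoclast formation, ran the other way at 32, 14 and 6 against 3, 1 and 1 reads and was also untested. Both groups held bone transcripts. Summed over the osteoblast list, normalized reads were 1211 to 3570 in healthy and 4461 to 7324 in untreated libraries, and since the sources do not say how much bone was taken with each sample, bone carried along and bone formed in the defect cannot be told apart.

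Vessel genes showed no called member. Of 89 genes for endothelium, pericytes and basement membrane 24 were tested. Limma and edgeR called 0, 4 were higher with an unadjusted p under 0.05, and DESeq2 called 4. The 2 chains of basement membrane type IV collagen led them: COL4A1 had 16, 36 and 7 reads in healthy and 98, 37 and 138 in untreated libraries, and COL4A2 had 10, 14 and 7 and 28, 25 and 64. Their groups did not overlap after scaling, by a narrow margin for COL4A1, and their log2 fold changes were 2.14 ± 0.68 (adjusted p = 0.162) and 1.64 ± 0.46 (adjusted p = 0.127). MYH11, the smooth muscle myosin, had 340, 397 and 345 against 710, 625 and 1002 reads, and TMEM204, a membrane protein of endothelium, 113, 107 and 115 against 217, 262 and 370. For both, every untreated library was higher, with log2 fold changes of 0.99 ± 0.31 and 1.21 ± 0.33 (adjusted p = 0.159 and 0.118). MYH11 alone does not show a change in smooth muscle. Only 2 of the 18 pericyte and smooth muscle genes were tested, and ACTA2 of that list had 0, 0 and 0 against 1, 0 and 2 reads. The defining endothelial markers were close to 0 in both groups. PECAM1 had 0, 0 and 0 and 1, 0 and 2 reads, CDH5 had 3, 0 and 0 and 8, 0 and 2, and VWF had 0, 0 and 0 and 0, 1 and 1. With so few counted reads, a change in vessel content was not detectable from them.

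Of 292 immune genes 173 had a row and 46 were tested, with 1 call in each direction (4.35% against 2.55% of all tested genes) and a median log2 fold change of -0.08. Leukocyte markers were sparse: PTPRC, the pan-leukocyte antigen CD45, had 3, 2 and 3 reads in healthy and 9, 15 and 6 in untreated libraries. Every untreated library was higher, a ratio of 3.51 with an exact 95% counting interval of 1.57 to 8.85. That interval covers counting error only, not the spread between libraries, and the reads were too few for the test. CD14, of monocytes, had 2, 3 and 1 and 8, 2 and 4 reads. Of 11 tested of 40 monocyte and macrophage genes, limma and edgeR did not call one as changed (2 with an unadjusted p under 0.05, 1 by DESeq2). CSF1R, the receptor that macrophages and osteoclasts depend on, had 5, 7 and 2 against 13, 15 and 18 reads, all untreated libraries higher (1.53 ± 0.44, adjusted p = 0.135). CLEC12B, a C-type lectin of myeloid cells, had 5, 14 and 11 against 60, 199 and 46 reads, again without overlap (2.92 ± 0.66, adjusted p = 0.0741). CD68, a lysosomal marker of macrophages, overlapped, at 16, 9 and 11 against 23, 14 and 22. Several immune genes were high in untreated replicate 3 alone. TYROBP, a signalling adaptor of myeloid cells, had 17, 9 and 166 reads in untreated against 7, 8 and 10 in healthy libraries. C1QC of the complement complex C1q had 0, 0 and 17 against 1, 0 and 3. IL10, an anti-inflammatory cytokine from the cytokine list, had 2, 0 and 20 against 0, 0 and 0. Since this was 1 library of 3, these values are not a difference between groups.

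The immune gene that fell was TNIP1, an inhibitor of NF-kB signalling and the 1 called gene among the 9 tested of 46 NF-kB, prostaglandin and effector genes. It had 155, 56 and 68 reads in healthy and 23, 10 and 9 in untreated libraries. The groups lay apart, and it fell by 2.70 ± 0.47 on the log2 scale (adjusted p = 0.0324). In the RefSeq table of a newer rabbit assembly, mOryCun1.1, GPX3 lies within 1000 bases of TNIP1. The called gene in the other direction was TFRC, the transferrin receptor by which cells take up iron, which is on the erythroid list: 11, 11 and 9 reads against 61, 44 and 27, a rise of 1.83 ± 0.35 (adjusted p = 0.0461). Other red cell genes stayed sparse or overlapped. Of 79 cytokines and chemokines 6 were tested, and none was called by limma, edgeR or DESeq2 (2 with an unadjusted p under 0.05). IL23A, a cytokine subunit, had 3, 20 and 13 against 35, 59 and 37 reads (1.94 ± 0.65, adjusted p = 0.175). IL21 was untested at 47, 10 and 27 reads in healthy and 4, 0 and 1 in untreated libraries, and so was PTGES, a prostaglandin E synthase, at 5, 38 and 6 against 0, 0 and 3. SOD3, the extracellular superoxide dismutase, had 116, 56 and 18 against 27, 9 and 16 reads (-1.66 ± 0.68, adjusted p = 0.278). SEMA3C, a guidance factor, lay just outside the threshold: 22, 27 and 30 against 10, 7 and 3 reads, a log2 fold change of -2.01 ± 0.40 and an adjusted p of 0.0509. Of 48 genes of complement, antigen presentation and interferon response 7 were tested and limma and edgeR called none (1 with an unadjusted p under 0.05, also called by DESeq2): UBA7, the activating enzyme of the ubiquitin-like ISG15, had 77, 108 and 71 against 202, 300 and 464 reads (1.75 ± 0.43, adjusted p = 0.086). Among 36 lymphocyte genes 8 were tested and none was called by limma, edgeR or DESeq2. CD4 was the 1 with an unadjusted p under 0.05, at 22, 37 and 45 against 22, 18 and 9 reads (-1.15 ± 0.42, adjusted p = 0.225).

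**Figure D4:**
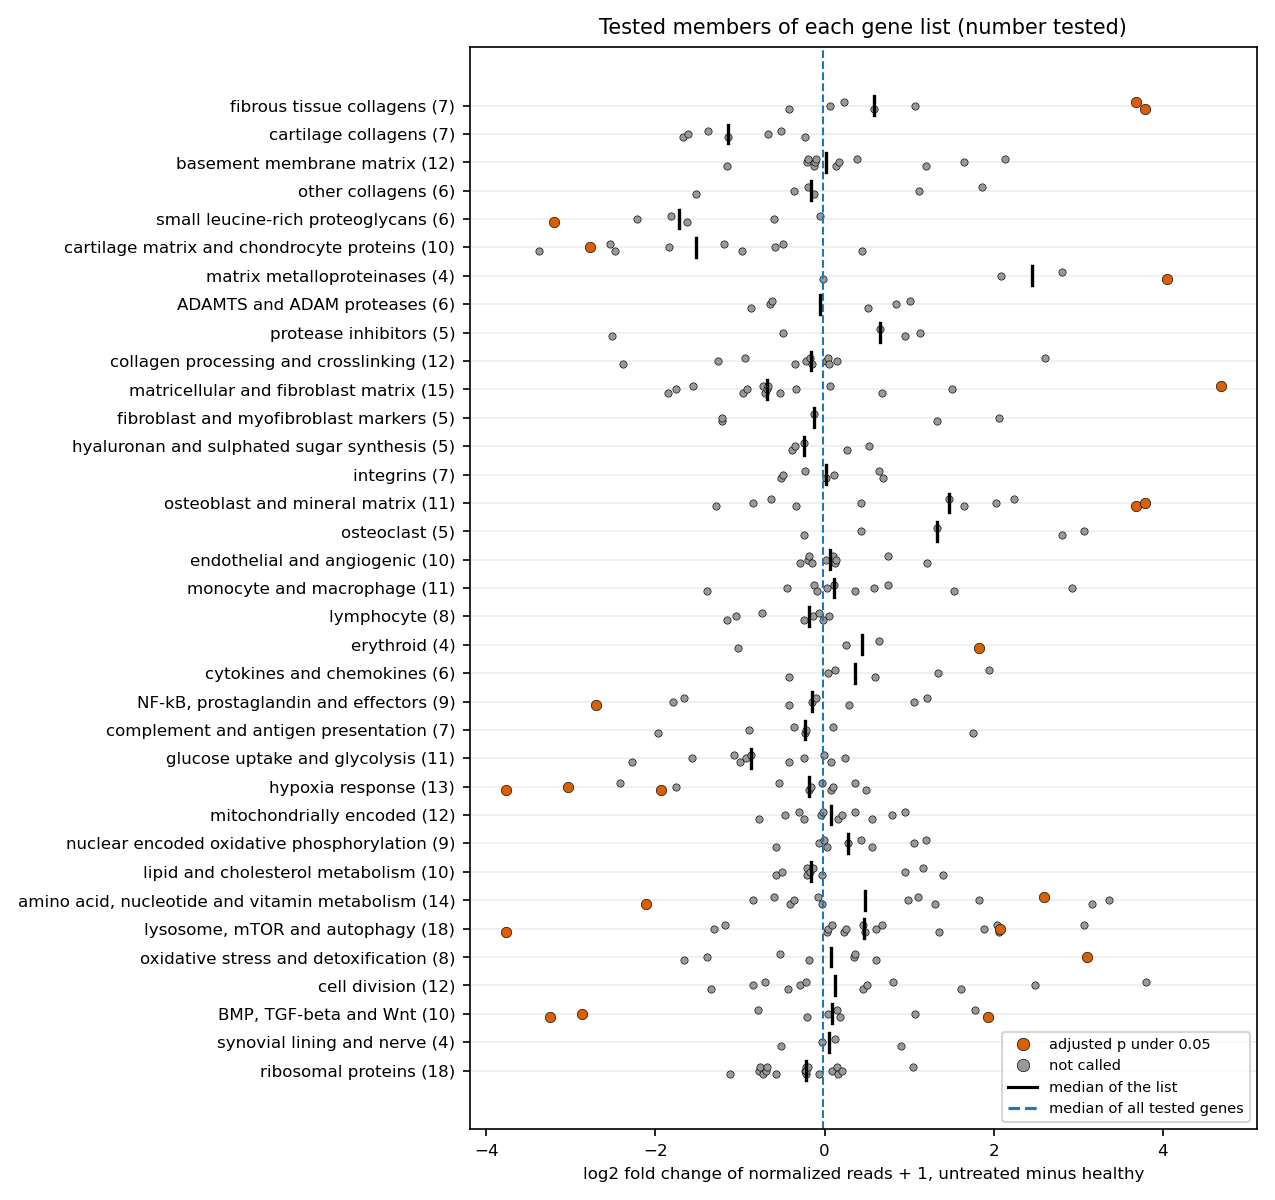
Log2 fold change (horizontal axis) of every tested member of the gene lists with at least 4 tested members (rows, number tested in brackets). Orange points were called by limma, black bars are list medians and the dashed line is the median of all tested genes, -0.02. Cartilage collagens and small leucine-rich proteoglycans lie left of it, osteoblast genes and metalloproteinases mostly right.

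Of 30 genes of the response to low oxygen 13 were tested, 3 fell and 0 rose, against 1.2% of all tested genes that fell. The median of the list was -0.19. At an unadjusted p under 0.05 (limma), 5 were lower and 0 higher, and DESeq2 called 4 lower and 0 higher. CA9, the carbonic anhydrase that HIF-1 induces, had 29, 18 and 69 reads in healthy and 0, 2 and 4 in untreated libraries. STC2, stanniocalcin 2, had 45, 76 and 140 and 5, 15 and 10, and ADM, the peptide adrenomedullin, 19, 17 and 44 and 7, 5 and 6. In each of the 3 genes all untreated libraries were below all healthy ones. The falls were 3.76 ± 0.67, 3.03 ± 0.56 and 1.93 ± 0.38 on the log2 scale, with adjusted p-values of 0.0346, 0.0397 and 0.049, and edgeR gave 0.0481, 0.0368 and 0.057. HIF1A, the oxygen-regulated factor itself, had 206, 52 and 207 reads against 40, 8 and 47, also apart, with a log2 fold change of -2.42 ± 0.73 that was not called (adjusted p = 0.148). ERO1A, an oxidase of the endoplasmic reticulum, lay apart on the higher side, at 377, 474 and 502 against 621, 543 and 677 reads, and was not called (adjusted p = 0.613). The other 8 tested members overlapped between groups, among them BNIP3, a mitophagy receptor, at 100, 75 and 67 against 98, 56 and 137 reads, and the glucose transporter SLC2A1, at 35, 12 and 15 against 24, 29 and 13.

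Glycolysis, the main energy source of chondrocytes, had 11 of 45 genes tested with a median of -0.87, and limma and edgeR called none (2 lower with an unadjusted p under 0.05, 1 by DESeq2). ENO1 (enolase) had 86, 33 and 32 reads in healthy and 15, 3 and 15 in untreated libraries (-2.27 ± 0.61, adjusted p = 0.112). GAPDH had 91, 32 and 78 against 16, 16 and 37 (-1.57 ± 0.50, adjusted p = 0.164). The groups of ENO1 lay apart, and those of GAPDH overlapped by 1 library on each side. Its neighbour IFFO1, which lies within 1000 bases of GAPDH on mOryCun1.1, was called at 23714, 30415 and 34713 against 7418, 7168 and 11550 reads, a fall of 1.87 ± 0.33 (adjusted p = 0.0358). Oxidative phosphorylation was not called: 12 of 13 mitochondrially encoded genes were tested with a median of 0.07, and 9 of 80 nuclear encoded ones with a median of 0.28. Of these, 2 and 1 were higher with an unadjusted p under 0.05, and edgeR called none and DESeq2 1 of them, ND6. ND6 had 14299, 10216 and 14903 reads in healthy and 35044, 26730 and 20149 in untreated libraries (0.95 ± 0.31, adjusted p = 0.168) and made up 86.0% to 93.5% of the reads on mitochondrial protein genes in every library. It lies on the opposite strand of mitochondrial DNA from all other genes of that list. Which strand the counts hold, here and for the other genes of this report, was not tested.

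In amino acid and one-carbon metabolism 14 of 46 genes were tested, with a median of 0.48 and 1 call in each direction by limma. The split was uneven at looser thresholds, with 7 higher and 1 lower at an unadjusted p under 0.05 and 6 higher and 1 lower by DESeq2. SHMT2, the mitochondrial serine hydroxymethyltransferase that feeds the folate cycle, had 9251, 19859 and 16292 reads in healthy and 3992, 3176 and 3571 in untreated libraries, the latter almost identical after scaling. It fell by 2.11 ± 0.36 (adjusted p = 0.0324). NDUFA4L2, a HIF-1 target that lies within 1000 bases of it on mOryCun1.1, had 9, 10 and 13 against 4, 2 and 3 reads. The strand setting of the count is not given, and whether reads of NDUFA4L2 entered the SHMT2 value was not tested. BCKDHB, a subunit of the dehydrogenase for branched chain amino acids, rose from 2, 3 and 5 to 46, 27 and 14 reads (2.60 ± 0.45, adjusted p = 0.0324). The folate carriers SLC19A1, at 82, 135 and 87 against 444, 778 and 3783 reads, and SLC46A1, at 132, 120 and 148 against 295, 313 and 310, had all untreated libraries higher, with log2 fold changes of 3.36 ± 0.78 and 1.11 ± 0.27 and adjusted p-values of 0.0783 and 0.086. The mitochondrial arginase ARG2 and the serine dehydratase SDS were also higher in each untreated library without a call: ARG2 had 102, 80 and 122 against 187, 187 and 270 reads (0.98 ± 0.31) and SDS 969, 1428 and 1080 against 2335, 2040 and 5695 (1.30 ± 0.46).

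Lysosome, mTOR and autophagy genes gave 1 call in each direction among 18 tested of 62 (median 0.46), where 5 were higher and 3 lower at an unadjusted p under 0.05 and DESeq2 called 4 and 2. UVRAG, a regulator of autophagosome maturation, had 12, 12 and 32 reads in healthy and 0, 0 and 1 in untreated libraries (limma adjusted p = 0.0244). The healthy to untreated ratio was 59.9, with an exact 95% counting interval, for counting error only, of 10.3 to 2407. AMBRA1, an activator of autophagy, had 7, 13 and 6 against 33, 47 and 43 and rose by 2.08 ± 0.40 (adjusted p = 0.049), a call that edgeR did not make (adjusted p = 0.0514). PPT1, a lysosomal thioesterase, was abundant, at 4771, 5046 and 4900 reads in healthy and 11952, 13132 and 15050 in untreated libraries, which lay apart (1.35 ± 0.29, adjusted p = 0.0627). EPG5, needed for fusion of autophagosomes with lysosomes, had 5, 9 and 7 against 99, 150 and 22 reads (3.07 ± 0.69, adjusted p = 0.0741). TSC2, an inhibitor of mTOR, had 2968, 5554 and 3720 against 2185, 1119 and 1983 reads, and MTOR itself 49, 91 and 31 against 32, 21 and 20. Both were lower in every untreated library without being called (adjusted p = 0.132 and 0.246).

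Lipid genes were not called by limma or edgeR (10 of 56 tested, median -0.16, 3 higher with an unadjusted p under 0.05, 1 by DESeq2). PLTP, the phospholipid transfer protein, had 3811, 4084 and 2256 reads in healthy and 9359, 9359 and 9007 in untreated libraries, with groups apart (1.40 ± 0.35, adjusted p = 0.0894). One of the 8 tested of 39 oxidative stress genes was called: DUOXA2, the maturation factor of the hydrogen peroxide producing oxidase DUOX2, at 4, 4 and 6 against 30, 48 and 89 reads (3.10 ± 0.46, adjusted p = 0.0272). DUOX2 itself had 0, 0 and 2 and 1, 0 and 3 reads. Across all 366 metabolic genes 94 were tested, 3 rose and 5 fell, or 8.51% against 2.55% of all tested genes, and DESeq2 called 13 higher and 8 lower.

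**Figure D5:**
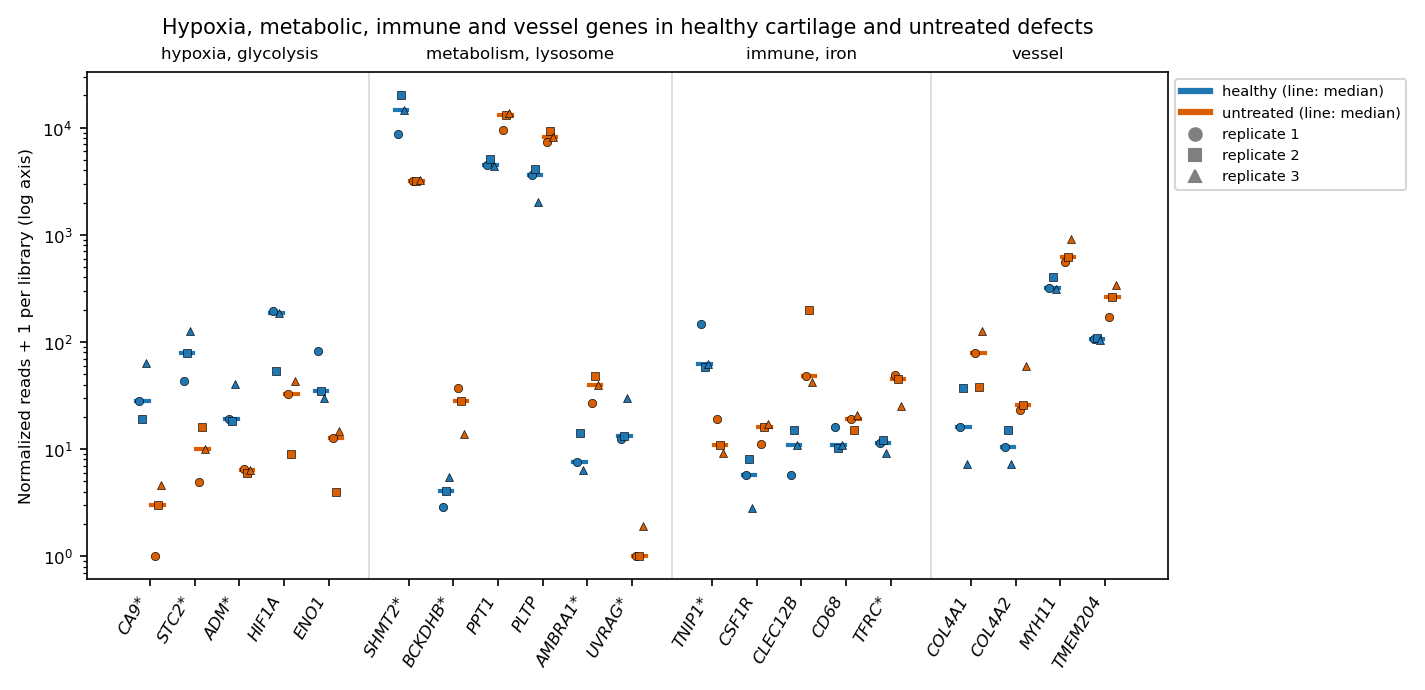
Normalized reads plus 1 per library (log axis) of hypoxia, metabolic, immune and vessel genes in healthy (blue) and untreated (orange) samples, with a marker for each replicate, a line at the median of 3 and an asterisk at genes called by limma. The 3 untreated libraries lie below the healthy ones for CA9, STC2, ADM, SHMT2 and UVRAG, and above them for BCKDHB, AMBRA1 and TFRC, while CD68 overlaps.

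Several called genes lie outside these themes. TPR, a nuclear pore protein, had 10079, 11591 and 10391 reads in healthy and 342, 1138 and 428 in untreated libraries and fell by 4.37 ± 0.53 (adjusted p = 0.0244). On mOryCun1.1 its locus overlaps PRG4, the lubricin gene of the cartilage surface, and since the strand setting of the count is not given, reads of these 2 genes cannot be told apart. The same holds for NUDT6, which overlaps the growth factor gene FGF2 (2468, 5169 and 2996 against 311, 624 and 110 reads, a fall of 3.69 ± 0.67, adjusted p = 0.039), for OGN, which overlaps the centromere gene CENPP, and for FBXL13, which overlaps LRRC17 and others (6, 13 and 7 against 129, 126 and 506 reads, a rise of 4.36 ± 0.62, adjusted p = 0.0251). PMCH, the precursor of melanin concentrating hormone, overlaps PARPBP and had 5, 6 and 12 against 106, 83 and 188 reads (3.77 ± 0.43, adjusted p = 0.0244). Among genes named elsewhere in this report, AMBRA1 overlaps HARBI1 and ADAMTSL4 overlaps MCL1 on mOryCun1.1, and BMP6 lies within 1000 bases of TXNDC5. BCKDHB and ATP6V0D2 also overlap another gene there, and ADM, BMP1 and ARG2 each lie within 1000 bases of one. These are examples, not a full list of the named genes with a neighbour. Of the 70 called genes found in that table by symbol, 51 (72.9%) had another gene overlapping or within 1000 bases, against 68.9% of the 2688 tested genes found there. In 12 of the 14 pairs of a called gene and a tested neighbour both had a log2 fold change of the same sign, against 278 of all 484 pairs of tested neighbours (57.4%), and the part of shared reads in this was not tested.

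Further large decreases were those of PPP1R3C, a glycogen targeting subunit (54, 31 and 31 against 8, 3 and 2 reads), DACT2, a modulator of Wnt and TGF-beta signalling (21, 17 and 26 against 3, 0 and 4), and SEMA3D, a semaphorin (68, 33 and 23 against 7, 5 and 3), at -3.07, -3.07 and -2.80 on the log2 scale. Further large increases were those of METTL7B, a methyltransferase of lipid droplets and the endoplasmic reticulum (7, 11 and 4 against 83, 62 and 140 reads), and CERKL, a ceramide kinase-like protein that overlaps ITGA4 on mOryCun1.1 (82, 43 and 159 against 702, 743 and 1153), at 3.43 and 3.25. The adjusted p-values of these 5 genes were 0.0398 or lower, and their groups did not overlap. EdgeR did not call DACT2 (adjusted p = 0.055). A further list held 51 genes picked for this report from the larger number that the study names. It includes STAB1, which the study reports as raised only with the scaffold. Of the 51 genes, 42 were tested, 10 rose and 2 fell (median 1.90). That list was chosen on these same libraries and is not independent evidence of its direction.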

How the data were processed

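PolyA RNA was sequenced from 3 untreated and 3 healthy tissue samples, grouped by the labels. According to their methods, the authors used Bowtie within TopHat to place reads on oryCun2.0, dropped those with several alignments, ran eXpress for gene counts and scaled these with DESeq2. Versions, annotation release and strand setting are not given in the sources used here. As deposited, each gene has a signal, its count divided by a size factor. Each column was divided by its smallest value above 0, and 100% of values came out whole within 0.001, giving 724986 to 944448 reads per library, which limits precision for low genes. Columns of the authors' fold changes and p-values were not used. Genes kept by filterByExpr of edgeR were tested with limma 3.58.1 in R 4.3.3 on log2(deposited value + 1), with Benjamini-Hochberg adjustment and calls at an adjusted p of 0.05. The alternatives were edgeR 4.0.16 and DESeq2 1.42.0 on recovered reads, other pseudocounts, filters, scalings and variance models, all 9 libraries, a replicate block and leaving out each library. The pipeline was tested on simulated data. Equal replicate numbers were not taken as pairs, since the labels do not give them as the same animal. The correlations of their deviations were 0.28, 0.12 and -0.06, and those of unequal numbers -0.245 to 0.125. Deviations from a mean of 3 are tied to each other, so these values cannot settle the pairing. Named genes are called list members and the 15 largest changes each way among called genes with a symbol. For each list, the 3 uncalled members with the smallest p and the 3 most abundant were added. So were genes picked from those the study names, and defining markers. Any further gene was picked with its values in view. The members and lists were chosen with earlier results of these data known. RefSeq genes of mOryCun1.1 served for neighbours only, as that build differs from oryCun2.0.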

Additional observations from a re-analysis of the deposited data

How the results depend on the processing

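Limma called 89 genes, 47 higher and 42 lower (matrix 6, bone 2, vessel 0, immune 2, metabolic 8). DESeq2 called 275, 153 and 122 (matrix 19, bone 5, vessel 4, immune 4, metabolic 21). With no filter on low values, where 14300 genes were adjusted together, 20, 9 and 11 were called (matrix 2, bone 0, immune 0, metabolic 1). With all 9 libraries in the fit the counts were 173, 99 and 74 (immune 4, metabolic 15). Among the 836 genes without a neighbouring gene on mOryCun1.1, a restriction chosen after seeing the data, 14, 6 and 8 were called (matrix 2, bone 0, immune 0, metabolic 0). Bone calls were 1 with edgeR, TMM scaling or scaling without the most abundant gene. Immune calls were 0 in the last of these and 1 with a pseudocount of 0.5, which gave 5 metabolic calls. Leaving out healthy replicate 1, 2 or 3 left 4, 2 or 7 calls, and leaving out untreated replicate 1, 2 or 3 left 2, 5 or 2, with ranges of 1 to 4 higher, 1 to 4 lower, 1 to 3 matrix, 0 to 1 bone, 0 immune and 0 metabolic calls. These fits have fewer samples. COL3A1 ranged from -0.43 (without untreated replicate 3) to 1.83 (without untreated replicate 2) over these fits, and the cause was not tested. A replicate block in the fit gave 94 calls, of which 69 were among the 89, and 4 bone calls. None of the 30 called genes followed changed sign under any alternative, which says little, since they were selected by the main fit on the same libraries. With any 1 library left out, 26 to 28 of these 30 were no longer called. The low number of counted reads limits the statements on vessel and leukocyte markers.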

Other observations

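Signalling genes outside the themes of the report held 3 calls among the 10 tested of 84 BMP, TGF-beta and Wnt genes (median 0.09). That is 30% against 2.55% of all tested genes, in a list chosen with earlier results of these data known. GLI1, the transcription factor and readout of Hedgehog signalling, had 17, 19 and 12 reads in healthy and 65, 59 and 79 in untreated libraries, and rose by 1.93 ± 0.32 on the log2 scale (limma adjusted p = 0.0302). GREM1, a secreted BMP antagonist of articular cartilage, had 13, 18 and 16 against 3, 2 and 0 reads and fell by 2.87 ± 0.50 (adjusted p = 0.0324), a call that edgeR did not make (adjusted p = 0.055). FZD9, a Wnt receptor, had 12, 16 and 21 against 2, 0 and 1 reads (adjusted p = 0.0251). Its healthy to untreated ratio was 17.5, with an exact 95% counting interval, for counting error only, of 5.64 to 87.6. In none of these 3 genes did the groups overlap. BMP6 had 2301, 3919 and 2184 against 5472, 4265 and 9413 reads, all untreated libraries higher, and was not called (1.07 ± 0.42, adjusted p = 0.262).

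Cell division genes were not called by limma or edgeR (12 of 43 tested, median 0.12, 3 with an unadjusted p under 0.05, 2 by DESeq2). MKI67, the proliferation antigen, had 3, 0 and 3 reads in healthy and 9, 2 and 31 in untreated libraries. Single libraries held a few transcripts at levels far from all others: in untreated replicate 3 the spindle checkpoint gene ZWILCH had 836 reads against 1 to 19 elsewhere and the lysosomal protease CTSA had 3069 against 8 to 92. What sets these apart was not tested.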
